A study of Homo sapiens with 8 samples.

Results

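Some RBM45 CLIP peaks stand in the deposited peak lists once and others many times over, as identical rows. The regions described here are the peaks that fill 10 or more identical rows in a list, counted by peak name and strand, and they are called repeated entries. A peak on 1 strand is 1 entry, however many rows it fills. The replicate 1 list held 2166 repeated entries among 210878 entries (1.03%), and the replicate 2 list held 714 among 65587 (1.09%). Together these are 2880 of 276465 entries. Since each fills many rows, they made up 6.87% of the 467329 rows of replicate 1 and 6.76% of the 148958 rows of replicate 2. They were set against the entries with 1 row, called single-row entries, which numbered 102040 in replicate 1 and 30481 in replicate 2. The rule counts rows and uses no measured value of a peak. Nothing in the files says what produced the repeats.

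Both lists come from wild-type HEK293T cells, a human embryonic kidney line, transduced with a lentivirus that carries FLAG-HA-tagged human RBM45. The cells were irradiated with 254 nm ultraviolet light at 300 mJ/cm2, and RNA bound to the tagged protein was recovered with an antibody against HA (CLIP, cross-linking and immunoprecipitation). The tagged protein is supplied by the virus, so its level need not be that of the cell's own RBM45. The whole series has 8 samples in 4 groups of 2 replicates, with inputs and METTL3 knockout cells that are not analysed here. Whether the 2 replicates were separate cultures is not given in the labels, so likeness between the lists may be technical only. The intervals below cover counting error among the entries of a list and no spread between libraries. Read depth is unknown for both lists, which differ in length, with 0.311 replicate 2 entries per replicate 1 entry.

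RBM45 is an RNA-binding protein with RNA recognition motifs that is found mainly in the nucleus, where it can meet unspliced transcripts. The series title presents it as a binder of m6A, a methyl mark that the METTL3 complex places on messenger RNA, and as a protein that affects the splicing of some pre-mRNAs. A gene can yield many transcripts through alternative start sites, splicing and 3′ ends, and an annotation lists each of them as a record of its own. A list of peaks that is joined to such records carries a peak once per record that covers it. Whether such a join made the repeats was not tested. All positions below are in hg19, counted from 1, and name the stretch of chromosome only.

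The number of rows followed the position of a peak and not the library. An entry was called found in the other list where a peak there overlapped it, by 1 base or more and on its own strand. Such overlaps gave 19018 pairs of a replicate 1 and a replicate 2 entry, and 19015 of these pairs (99.98%) had the same row count in both lists. The other 3 pairs differed by 1 row, and none of them was a repeated entry. A pair on the plus strand of chromosome 15, for example, filled 2 rows in replicate 1, at 96874058 to 96874257, and 1 row in replicate 2, at 96874000 to 96874106. All 204 pairs in which either entry was repeated had equal counts, from 10 to 31 rows, and lay in 64 loci. Positions that the other list did not hold showed the same. Of the 1964 repeated entries of replicate 1 with no replicate 2 counterpart, 672 lay between replicate 2 entries that were at most 10 kb away on either side and had 1 common row count. The repeated entry had that count in 671 of these 672 cases (99.85%, 95% exact binomial interval 99.17 to 99.996). In replicate 2 it did so in 373 of 373 cases (lower bound 99.02%). Single-row entries did alike, in 27637 of 27642 such cases of replicate 1 and 15644 of 15645 of replicate 2.

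**Figure D1:**
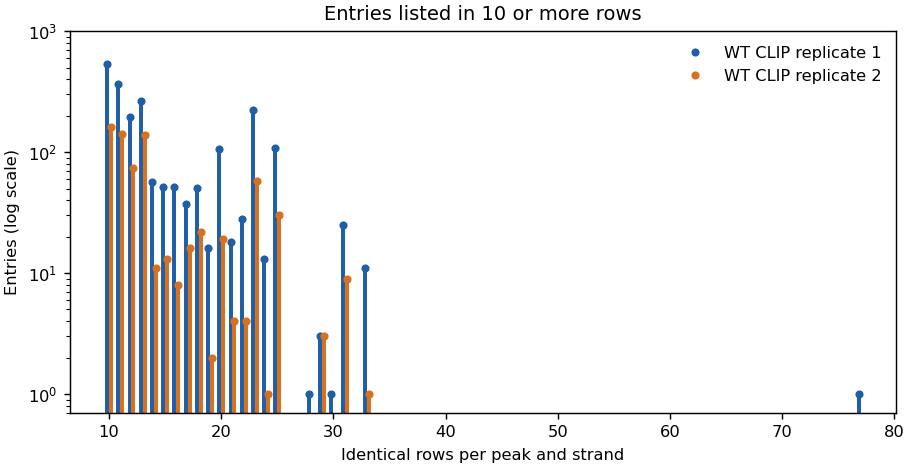
Number of repeated entries (vertical axis, log scale) by the identical rows each one fills (horizontal axis), for WT CLIP replicate 1 in blue and replicate 2 in orange. The numbers do not fall steadily from 10 rows on, with rises in both lists at 13, 18, 20, 23 and 25 rows among others, and 1 replicate 1 entry fills 77 rows.

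The distribution of row counts was uneven, and a few loci made its peaks. In replicate 1, 538 entries filled exactly 10 rows, 266 filled 13 and 224 filled 23, while 51 filled 18 and 16 filled 19. Replicate 2 had its own entries at the same counts, 161 at 10 rows, 138 at 13 and 58 at 23. Of the 125 entries of both lists with 20 rows, 86.4% lay in 1 locus, where a locus is a run of repeated entries of 1 strand with gaps of at most 10 kb. For 25 rows the share in 1 locus was 82.7% of 139 entries, and for 31 rows it was 91.2% of 34. The 282 entries with 23 rows were spread over 20 loci, with 51.1% in the largest of them. At the other end, the 699 entries with 10 rows lay in 122 loci, with at most 54 in any of them. Entries just inside and just outside the rule were alike in size: in replicate 1, both the 538 entries with 10 rows and the 861 entries with 9 rows had a median width of 31 bases. The shares found in replicate 2 were 9.11% (6.81 to 11.9) and 10.2% (8.28 to 12.4).

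The entries with the most rows were at or below the median strength of their list, save 2 in replicate 2. The median fold enrichment over all entries was 3.12 in replicate 1 and 3.81 in replicate 2. The replicate 1 entry with 77 rows lay on the minus strand of chromosome Y, at 15580356 to 15580385, was 30 bases wide and had a fold enrichment over the caller's background of 2.34. It had no counterpart in replicate 2. Chromosome Y held 40 entries of replicate 1 and 6 of replicate 2 in all. A further 11 entries of replicate 1 filled 33 rows each, and of the 9 named by rank of rows and then strength, 8 lay on the plus strand of chromosome 17, from 48648776 to 48704514. Their fold enrichments were 2.34 or 3.12, and none was found in replicate 2. Replicate 2 had 1 entry with 33 rows, in the same stretch of chromosome 17 at 48642663 to 48642692, with a fold of 3.21. Its next 9 had 31 rows each and lay on the plus strand of chromosome 1 between 231766132 and 231833689, 30 to 61 bases wide, with folds of 4.41 in 2 of them and 2.98 to 3.21 in the other 7. Of these 9, only 1, at 231795162 to 231795222, was found in replicate 1.

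Repeated entries lay close together, and single-row entries did so about as often. Another repeated entry was within 10 kb on the strand for 92.7% of repeated entries in replicate 1 and 83.8% in replicate 2. For single-row entries and neighbours of their own kind, the shares were 91.4% and 81.1%. The pools of neighbours were unlike, since repeated entries were 1.03% and single-row entries 48.4% of the replicate 1 list. Within a list, repeated entries formed 378 loci in replicate 1 and 214 in replicate 2. The 10 largest loci held 650 of the 2166 in replicate 1 and 233 of the 714 in replicate 2 (32.6%). Single entries made up 159 loci of replicate 1 and 116 of replicate 2. Inside a locus, neighbouring repeated entries were a median of 1127 bases apart in replicate 1 and 1622 bases in replicate 2. The row count rarely changed inside a locus. With both lists joined there were 377 loci on 23 chromosomes. Of the 238 joined loci with more than 1 entry, 206 had a single row count throughout. Where the next entry on the strand was within 10 kb, it had the same row count for 1753 of 1816 repeated entries of replicate 1 (96.5%) and for 493 of 509 of replicate 2 (96.9%). No like share is given for single-row entries. Few entries with under 10 rows lay among the repeated ones on the same strand: repeated entries were 99.95% of the 2167 replicate 1 entries inside the joined loci and 99.3% of the 719 replicate 2 entries.

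**Figure D2:**
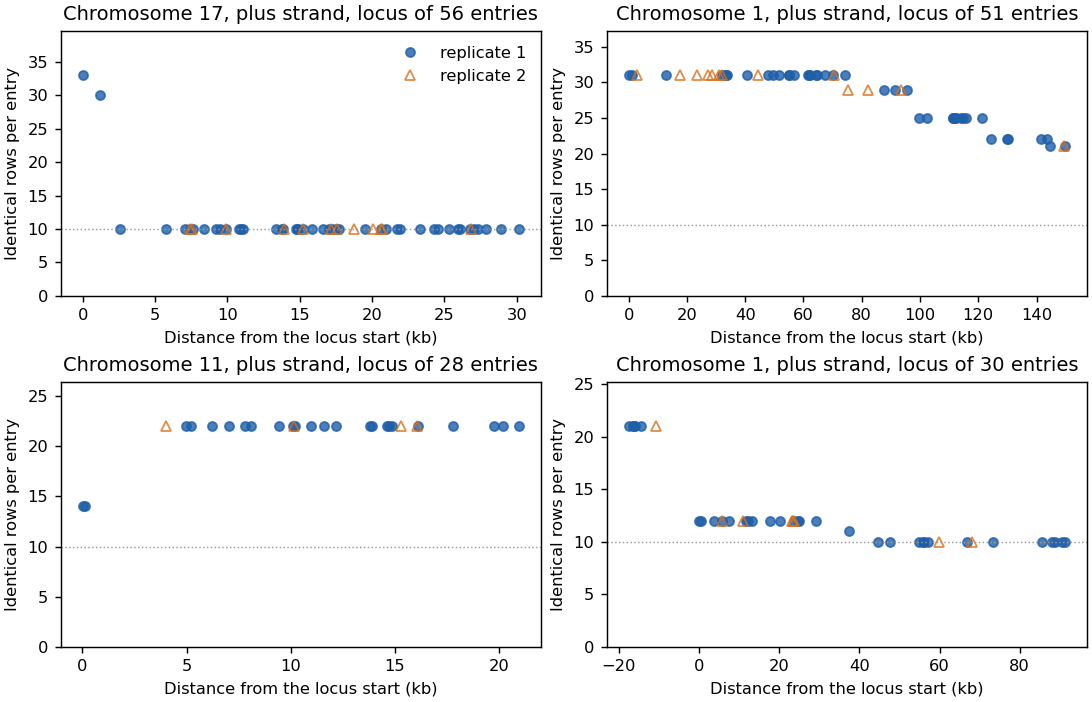
Identical rows per entry (vertical axis) against the distance from the locus start in kb (horizontal axis) in the 4 loci with at least 20 entries whose row count changes most, with replicate 1 as filled circles, replicate 2 as open triangles, 10 rows as the dotted line, and same-strand entries up to 20 kb beyond the locus drawn too. Row counts run in level steps, such as 31, 29, 25 and 22 on chromosome 1, where replicate 2 has entries at 31 and 29 rows and 0 at 25 and 22.

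In the 4 loci drawn, chosen because their row count changed most, the count ran in level steps, some of them of 1 entry only. Replicate 2 had entries on some of these steps, with the row count that replicate 1 had there, and none on the others. On the plus strand of chromosome 1, 22 replicate 1 and 9 replicate 2 entries from 231763280 to 231837422 filled 31 rows. From 231838544 to 231858689, 3 entries of each list filled 29 rows. Further on, 11 replicate 1 entries from 231862949 to 231884450 filled 25 rows, 3 more up to 231893574 filled 22, and replicate 2 had 0 entries on both steps. Nearby, the locus from 231959675 to 232033152 began with 14 replicate 1 and 5 replicate 2 entries of 12 rows and ended with 8 and 2 entries of 10 rows. For chromosome 17, plus strand, the step was seen in replicate 1 alone. The entry at 16343393 to 16343424 filled 33 rows and the next, at 16344584 to 16344616, filled 30. The 42 replicate 1 and 12 replicate 2 entries from 16345964 to 16373550 all filled 10.

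The chromosomes carried unequal numbers of repeated entries. Chromosome 10 had the most, 388 in replicate 1 and 182 in replicate 2, or 17.9% and 25.5% of the repeated entries, against 4.6% and 4.32% of single-row entries. Chromosome 1 followed with 329 and 96. Chromosome 12 came next in replicate 1 with 224, while in replicate 2 its 42 were fewer than the 58 each on chromosomes 17 and 20 and the 57 on chromosome 3. Chromosome 21 held 132 and 31 repeated entries, which is 5.45 and 3.56 per 100 of its entries. Other chromosomes were nearly free of them: chromosome 16 had 7 among 9879 replicate 1 entries and 1 among 3619 replicate 2 entries, chromosome 7 had 4 and 0, and chromosome 13 had none in either list. The plus strand carried 62.8% of repeated entries in replicate 1 (60.8 to 64.9) and 60.4% in replicate 2 (56.7 to 64.0), against 52.1% and 52.4% of single-row entries. Entries with 10 to 19 rows were at the level of single-row entries, with 52.0% in replicate 1 and 52.6% in replicate 2. Among entries with 20 or more rows the plus strand had 95.4% in replicate 1 and 95.3% in replicate 2. The last shares rest on few loci, since 3 loci held 57.6% of the 540 replicate 1 entries with 20 or more rows and 41.1% of the 129 in replicate 2.

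Some of the loci joined into long stretches. The largest locus lay on the plus strand of chromosome 12, from 2227235 to 2442089, where 128 replicate 1 and 30 replicate 2 entries filled 23 or 24 rows. Joined over gaps of up to 100 kb, it became a stretch of 641 kb, from 2164809 to 2805518, with 205 replicate 1 and 38 replicate 2 entries at 23 or 24 rows. Chromosome 10 had a stretch of its plus strand from 114710249 to 114920017 with 140 and 71 entries, all with 13 rows. Its minus strand, from 34612261 to 35102845, held 111 and 57 entries, all with 11 rows. Each of these 3 stretches kept 1 or 2 row counts from end to end. Chromosome 1 had a stretch of the plus strand from 44175697 to 44392859 with 98 and 30 entries of 25 rows, and chromosome 21 one from 44073947 to 44189112 with 93 and 15 entries of 20 rows. The fifth largest stretch differed: on the plus strand of chromosome 1, from 231763280 to 232086404, 100 and 26 entries filled 10 to 31 rows. In all, 146 such stretches existed, and the 10 largest held 44.0% of the repeated entries of both lists.

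Repeated and single-row entries were alike in width. The median width was 30 bases for both kinds in replicate 1 (interquartile range 30 to 46 for repeated and 30 to 45 for single-row entries). In replicate 2 it was 31 bases for both (30 to 40 and 30 to 41). The minimum width of 30 bases was shared by 50.1% of repeated entries of replicate 1 (48.0 to 52.2) and 52.9% of single-row entries (52.6 to 53.2). In replicate 2 the shares were 45.8% (42.1 to 49.5) and 48.5% (48.0 to 49.1). The widest repeated entry was 311 bases in replicate 1 and 159 in replicate 2, against 783 and 414 for single-row entries, which are many more. Strength differed slightly. The median fold enrichment was 3.31 in repeated and 3.12 in single-row entries of replicate 1, and 3.86 and 3.81 in replicate 2. The median −log10 p was 4.03 and 3.68 in replicate 1, and 4.62 and 4.15 in replicate 2. The highest fold of a repeated entry was 16.4 in replicate 1 and 14.9 in replicate 2. In the whole lists, which hold many more entries, it was 192.3 and 57.7. A fold above 5 was reached by 10.4% of repeated and 8.90% of single-row entries of replicate 1, and by 19.9% and 18.0% in replicate 2.

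Close neighbours were about as common for either kind of entry. Another repeated entry lay within 1 kb on the strand for 56.8% of repeated entries of replicate 1 (54.7 to 58.9). For single-row entries, 54.1% (53.8 to 54.4) had another single-row entry that near. In replicate 2 the shares were 42.6% (38.9 to 46.3) and 42.4% (41.8 to 42.9). These shares rest on unlike pools, since single-row entries are far more numerous. With entries of any row count as neighbours, the shares in replicate 1 were 57.1% and 54.1%. In replicate 2 they were 42.6% and 42.4%. Entries with 20 or more rows had a neighbour more often in replicate 1, 67.6% (63.5 to 71.5), and in replicate 2 the share was 37.2% (28.9 to 46.2). Peaks listed on both strands made up 92 repeated entries in replicate 1 (4.25%) and 28 in replicate 2 (3.92%). The shares were 4.65% and 4.23% for single-row entries, and 3.61% and 3.26% over all entries. Repeated entries with 10 to 19 rows had 5.54% and 4.79%, and those with 20 or more rows had 0.370% and 0%. On the opposite strand none of the 120 repeated peaks listed on both strands was repeated. Such a peak filled a median of 2 rows there in each list.

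**Figure D3:**
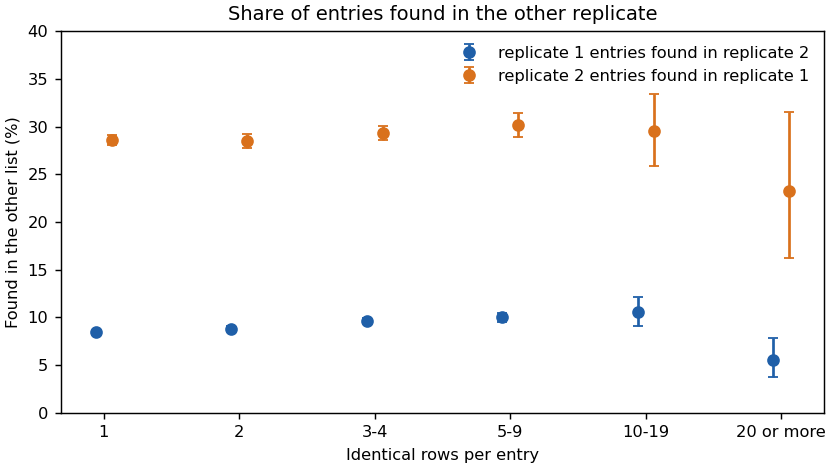
Share of entries found in the other WT CLIP list in percent (vertical axis) by identical rows per entry (horizontal axis), with 95% exact binomial intervals, for replicate 1 entries in blue and replicate 2 entries in orange. In replicate 1 the share goes from 8.42% at 1 row to 10.6% at 10 to 19 rows and is 5.56% at 20 or more, and in replicate 2 these shares are 28.6%, 29.6% and 23.3%.

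The next question was whether repeated entries were found in the other replicate more or less often than single-row entries. Of the repeated entries of replicate 1, 202 of 2166 were found in replicate 2, which is 9.33% (8.13 to 10.6), against 8.88% of all replicate 1 entries. Single-row entries gave 8590 of 102040, or 8.42% (8.25 to 8.59). In replicate 2, 203 of 714 repeated entries were found in replicate 1, or 28.4% (25.1 to 31.9), against 28.8% of all entries. Single-row entries gave 8708 of 30481, or 28.6% (28.1 to 29.1). Both shares of repeated entries were thus near the share of the whole list. The 202 and 203 found entries are the 2 ends of the same 204 pairs, so the 2 directions are not independent. Across smaller classes of rows, the share in replicate 1 was 8.42% at 1 row, 8.80% at 2, 9.65% at 3 to 4, 9.99% at 5 to 9 and 10.6% at 10 to 19. The intervals at 1 row (8.25 to 8.59) and at 5 to 9 rows (9.53 to 10.5) were apart. Compared within 10 classes of −log10 p, the odds ratio of being found was 0.997 (95% Mantel-Haenszel interval 0.855 to 1.16) in replicate 1 and 0.899 (0.756 to 1.07) in replicate 2. Both intervals include 1. With 5 or more rows as the rule, the value in replicate 1 was 1.09 (1.03 to 1.15), on the other side of 1, and in replicate 2 it was 1.02 (0.957 to 1.08). The intervals treat entries as independent, which neighbours in a locus are not, and no p-value was taken from them. With only the strongest entry of each locus kept, the odds ratio was 1.24 (0.846 to 1.81) and 0.908 (0.643 to 1.28).

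**Figure D4:**
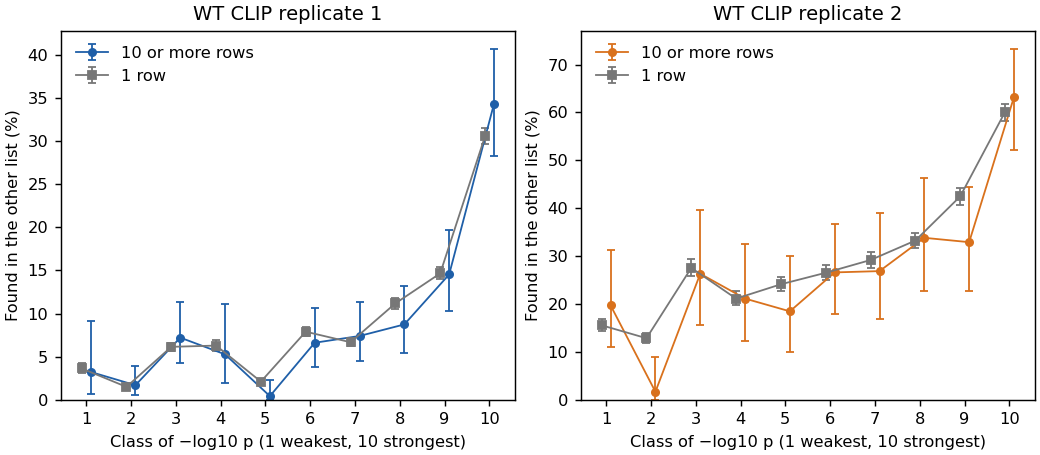
Share of entries found in the other list in percent (vertical axis) in 10 classes of −log10 p from weakest to strongest (horizontal axis), for repeated entries (circles) and single-row entries (grey squares), with 95% exact binomial intervals. Both kinds are highest in the strongest class, at 34.3% and 30.5% in replicate 1 and 63.2% and 60.1% in replicate 2. The rise is not steady, with low shares in classes 2 and 5 of replicate 1.

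The share found was highest in the strongest class for both kinds of entry, but it did not rise steadily with strength. In the strongest class of replicate 1, 82 of 239 repeated entries (34.3%, 28.3 to 40.7) and 30.5% of single-row entries (29.6 to 31.5) were found. In the weakest class it was 3 of 93 repeated entries (3.23%, 0.670 to 9.14) and 3.63% of single-row entries. In the strongest class of replicate 2 the shares were 63.2% (52.2 to 73.3) and 60.1% (58.3 to 61.9). The share of repeated entries was the higher one in 4 of 10 classes in replicate 1 and in 5 of 10 in replicate 2. The intervals were apart in 1 of these 20 comparisons, class 2 of replicate 2, with 1 of 60 repeated entries found (1.67%, 0.0422 to 8.94) against 12.8% of single-row entries (11.8 to 13.9).

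Entries with 20 or more rows were found less often in replicate 1 by the stratified odds ratio. There, 30 of 540 were found (5.56%, 3.78 to 7.84), against 172 of 1626 with 10 to 19 rows (10.6%, 9.12 to 12.2). At like strength the odds ratio to single-row entries was 0.658 (0.448 to 0.965), and 0.585 (0.375 to 0.911) without the chromosome 12 locus that held 128 of the 540. With 1 entry per locus it was 0.999 (0.318 to 3.14), with 4 of 46 found. In replicate 2, 30 of 129 were found (23.3%, 16.3 to 31.5), against 29.6% with 10 to 19 rows (25.9 to 33.5). The odds ratio there was 0.890 (0.581 to 1.36), and 0.816 (0.328 to 2.03) with 1 entry per locus. The values lay on the same side of 1 in both lists, which count the same overlaps and so are not independent. The interval left out 1 in replicate 1 alone. With 1 entry per locus the intervals are too wide to show a difference or its absence.

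**Figure D5:**
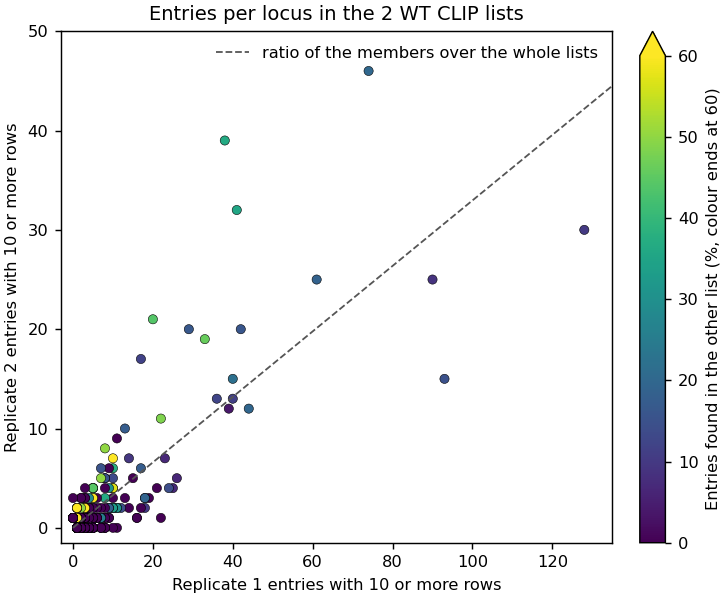
Repeated entries per locus in replicate 1 (horizontal axis) and replicate 2 (vertical axis), with each point 1 of 377 loci, coloured by the percentage of its entries that were found in the other list, and the dashed line at the overall ratio of 0.330. The chromosome 3 locus with 38 and 39 entries lies above the line, and the largest locus, on chromosome 12 with 128 and 30 entries, lies below it.

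Loci differed widely in how far the replicates placed their entries together. Of the 377 loci, 148 had repeated entries in both lists, and these held 84.8% of all repeated entries. Replicate 2 shared 88.6% of its 167 joined loci with replicate 1, which shared 41.3% of its 358. The lists differ in length and no like shares are given for single-row entries. These shares thus cannot be read as particular to repeated entries. The largest locus of replicate 1 alone had 11 entries, and the largest of replicate 2 alone had 3. In a chromosome 3 locus of the plus strand, 49509630 to 49566152, replicate 1 had 38 and replicate 2 had 39 entries, all with 13 rows, and 14 of each were found in the other list (36.8%, 21.8 to 54.0, and 35.9%, 21.2 to 52.8). Its median fold was 4.27 in replicate 1 and 4.93 in replicate 2. On the plus strand of chromosome 10, 96322869 to 96355810, there were 20 and 21 entries with 10 rows, and 9 of each were found. Chromosome 20 had a locus of the plus strand, 62499144 to 62522136, where 12 of 33 replicate 1 entries and 12 of 19 replicate 2 entries were found, all with 11 rows. On the minus strand of chromosome 17, 27085009 to 27167818, it was 13 of 41 and 13 of 32. These 4 loci were picked for their high shares. Their replicate 1 intervals lie above the 8.88% of the whole list, but the choice favours this outcome, so it is no test of a difference.

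The 3 loci with the most replicate 1 entries had replicate 1 shares closer to the 8.88% of the whole list. In replicate 2, where the whole list had 28.8%, the share of the chromosome 21 locus was well above it, on few entries. On chromosome 12, 8 of 128 replicate 1 entries were found (6.25%, 2.74 to 11.9), and 8 of 30 replicate 2 entries (26.7%, 12.3 to 45.9), with median folds of 3.12 and 3.81. The locus on the plus strand of chromosome 21, 44073947 to 44189112, had 93 entries in replicate 1 and 15 in replicate 2, and 8 of each were found (8.60%, 3.79 to 16.2, and 53.3%, 26.6 to 78.7). On the plus strand of chromosome 1, 44215533 to 44392859, 5 of 90 and 5 of 25 entries of 25 rows were found (5.56%, 1.83 to 12.5, and 20%, 6.83 to 40.7). All 6 intervals include the share of the whole list. Of 51 loci with at least 10 replicate 1 entries, 15 had no position in common with replicate 2, although 13 of these 15 had replicate 2 entries elsewhere in the locus. On the plus strand of chromosome 12, 2723820 to 2763042, for instance, 0 of 22 replicate 1 entries were found, which allows a share of up to 13.6% when 3 counts are taken as the limit of a count of 0, and up to 15.4% by the exact interval. At the other end stood a locus on the minus strand of chromosome 19, 51300897 to 51307828, where 6 of 10 replicate 1 entries were found. Over these 51 loci, the share found went with the median −log10 p of the entries (Spearman rho 0.762, a description of loci of 1 pair of libraries) and not clearly with the row count (rho −0.13).

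The entries of a pair share at least 1 base by definition, so their closeness is no result, and only the 2 kinds are compared. The midpoints of the 204 repeated pairs were a median of 6.5 bases apart, and those of 8743 single-row pairs 8.5 bases. The fold values of the paired entries lay within a factor of 2 in 87.7% of repeated pairs and 90.3% of single-row pairs. The pairs with the highest lower fold came from several of the loci above. At the first, on the plus strand of chromosome 17, the replicate 1 peak at 16350789 to 16350827 had a fold of 9.90 and the replicate 2 peak at 16350795 to 16350826 had 9.78, each in 10 rows. A pair in the 25-row stretch of chromosome 1, at 44374103 to 44374136 in replicate 1, had folds of 10.7 and 9.08. In the chromosome 10 locus of 10 rows, the pair at 96323424 to 96323456 had 15.4 and 7.77. On chromosome 12, within the largest locus, at 23 rows, both lists placed a peak at exactly 2268947 to 2268976, with folds of 7.14 and 14.9. The chromosome 3 locus gave 3 of the 10 pairs, at 49512547, 49516542 and 49549395, with lower folds from 6.63 to 7.25. The other 3 were on chromosome 10 at 114858527, on chromosome 1 at 231965401 and on the minus strand of chromosome 17 at 27144103, with lower folds from 6.61 to 7.25. Strong common positions were thus found at 10, 11, 12, 13, 23 and 25 rows.

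The authors' deposited table of shared WT peaks held each pair once, with 0 repeated rows among 13758. In it, 156 pairs (1.13%) were repeated entries of both lists, and 6279 (45.6%) were single-row entries of both. The 19018 pairs counted above needed 1 shared base only. Of these, 13758 shared at least 50% of the replicate 1 peak, among them 156 of the 204 repeated and 6279 of the 8743 single-row pairs. These numbers equal those of the authors' table, but whether the authors used such a rule was not tested. With each pair held once, the repeats weigh on the separate lists and not on the authors' table. Counting rows in place of entries moved the share of replicate 1 found in replicate 2 from 8.88% to 9.21%, and that of replicate 2 found in replicate 1 from 28.8% to 29.1%.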

How the data were processed

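Peaks of 2 WT CLIP libraries, 1 list each, were analysed. Per the submitters' processing notes, the build was hg19, and Novoalign 3.09.00, MACS2 2.1.1.20160309 and bedtools 2.25.0 were among the tools, without stated roles. The deposited lists give, from the authors, a score (10 times −log10 p as a whole number), a fold enrichment (ratio over the caller's background) and an unadjusted −log10 p. Peak names carry a p threshold of 0.005. The 8 count columns deposited in a count table and its summary match no sample label and were not used, so depth is unknown.

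Identical rows were counted per peak name and strand (minimum 10). Found means an overlap of 1 base or more with strands equal. Intervals of shares are 95% Clopper-Pearson (exact) and reflect counting error alone. Odds ratios used 10 classes of −log10 p with ties kept together (Mantel-Haenszel, Robins-Breslow-Greenland interval). Row counting, overlap and odds ratio were tested on simulated data. Alternatives were 5 or 20 rows, 50% of both peaks, strand ignored, the stronger 50%, other strata, 1 entry per locus and gaps of 1 or 100 kb. Others, named in the closing section, were added later.

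Named by rule were the 10 largest loci and the 10 entries with most rows per list, and the 10 repeated pairs with the highest lower fold. Stretches, loci with changing row counts, and loci contrasted by share found were chosen after their values were seen. The members and comparisons were chosen with earlier results of these data known. Genes, exons, introns and sequences were not analysed here. Computation used scipy 1.17.1, pandas 2.3.3, numpy 2.4.6 and matplotlib 3.10.9 under Python 3.11.15.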

Additional observations from a re-analysis of the deposited data

How the results depend on the processing

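Of the odds ratios recomputed, 15 kept their side of 1 and of the interval, 2 gained an interval without 1 and 9 changed side; of the other values, 19 changed by less than their own interval (counts by less than 1.5 times) and 39 moved. The replicate 1 odds ratio, 0.997, lies so near 1 that it passed to the other side with strata of width (1.07), of chromosome (1.13) or of entries of the other list within 10 kb (1.001, added later), with no strata (1.12), with 50% of both peaks (1.05), in the stronger 50% (1.08) and with 1 entry per locus (1.24), always with 1 inside the interval. With 5 or more rows it was 1.09 (1.03 to 1.15), an interval above 1, and in replicate 2 1.02 (0.957 to 1.08). With 20 or more rows it was 0.658 in replicate 1, and 0.585 without the largest locus, an alternative added later.

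Repeated entries numbered 18556 and 6168 at 5 or more rows, 540 and 129 at 20 or more, and 1186 and 395 in the stronger 50%, where fewer entries are counted. The shares found, 9.33% and 28.4%, were 5.56% and 23.3% at 20 or more rows, 6.69% and 20.3% with 50% of both peaks, and 10.96% and 33.2% in the stronger 50%; 1 entry per locus gave 24.3% in replicate 2. Single-row entries moved alike, to 5.75% and 19.2%, to 9.80% and 33.2%, and to 7.43% and 23.7% with 1 entry per locus. The median width of repeated entries was 34 bases in the stronger 50% of replicate 1 and 30 at 20 or more rows in replicate 2; that of single-row entries was 33 and 32 in the stronger 50%. The share with a neighbour was 67.6% and 37.2% at 20 or more rows, and within 10 kb 92.7% and 83.8%, against 91.4% and 81.1% of single-row entries. Loci numbered 1326 and 519 with gaps of 1 kb, 145 and 111 with 100 kb, 3450 and 1973 at 5 or more rows, and 46 and 35 at 20. Equal row counts were 100% of pairs with 50% of both peaks and 97.8% with strand ignored, which also pairs opposite strands. Beyond what the construction of an alternative shows, the cause was not tested. No paired analysis was possible because each list was analysed by itself and the count columns carry no sample labels.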
